A study of Homo sapiens with 6 samples.

Results

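The genes described here are 10 genes of the Hippo pathway and of its transcriptional output, measured by RNA-seq in SKOV3 cells after EIF5A2 knockdown. They are the co-activators YAP1 and WWTR1 (which encodes TAZ), the DNA-binding partners TEAD1, TEAD3 and TEAD4, the kinases LATS1 and LATS2, and the target genes CCN1, CCN2 and AMOTL2. They were chosen by name, with earlier results of these data known. Each was found once among the 58825 gene identifiers of the count table. CCN1 and CCN2 stand under their older names CYR61 and CTGF in the annotation. All 10 passed the filter on low counts, as did 16208 genes in all.

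SKOV3 is a human epithelial ovarian cancer (EOC) cell line. Its cells were transfected for 48 h with si-EIF5A2, an siRNA against EIF5A2, or with the negative control (NC), with 3 libraries per group. No other agent or allele is named for either group, so the contrast is that of 1 siRNA with the control siRNA in 1 cell line. The comparison asks which transcripts change when EIF5A2, a translation factor, is reduced. Nothing in the labels says whether the 3 libraries of a group came from separate cultures, so p-values measure only the spread between these libraries, which may be technical.

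In the Hippo pathway, the kinases MST1 and MST2 (encoded by STK4 and STK3) activate LATS1 and LATS2, which phosphorylate YAP and TAZ and keep them in the cytoplasm. Unphosphorylated YAP and TAZ enter the nucleus, bind TEAD factors and switch on genes of growth, adhesion and matrix, among them CCN1 and CCN2. Several target genes, such as LATS2 and AMOTL2, encode inhibitors of YAP and TAZ, so that the pathway feeds back on itself. Most of this control acts on the proteins, by phosphorylation, localisation and degradation, which RNA-seq does not measure.

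The sequence that TEAD factors bind was searched in the promoters of these genes, to describe how many copies each holds. The motif was GGAATG, read on both strands (CATTCC on the other strand), and no other motif was searched. The windows were those of RefSeq (GRCh38.p14), from 250 bases before to 50 bases after each gene's start. Of the members, 7 had a window (10 windows in all), and CCN1, TEAD1 and TEAD4 had none. The motif lay in 4 of these 10 windows, and in 4928 of 35116 windows of all genes (14%). CCN2 held 3 copies, all on the strand of the gene, starting 169, 104 and 95 bases before the start. Among all windows, 45 (0.128%) held 3 or more. The 250 bases before the start of CCN2 (chr6:131951373-131951622, minus strand) are printed with the motifs in capitals.
CCN2: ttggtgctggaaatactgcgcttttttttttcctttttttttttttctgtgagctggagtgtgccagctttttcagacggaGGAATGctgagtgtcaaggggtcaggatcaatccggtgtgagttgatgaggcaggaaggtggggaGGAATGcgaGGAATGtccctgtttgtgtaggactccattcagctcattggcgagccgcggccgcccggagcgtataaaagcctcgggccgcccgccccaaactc

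AMOTL2, LATS2 and YAP1 held 1 copy each, shown with the bases around it and with the motif in capitals. In AMOTL2 the copy began 69 bases before 1 of its 2 starts (chr3:134374499-134374528, minus strand) and was read on the strand opposite to the gene. In LATS2 it began at base 10 counted from the RefSeq start (chr13:21061560-21061589, minus strand). The GENCODE start of LATS2, at 21061547, lies downstream of this copy. In YAP1 the copy began 162 bases before the start (chr11:102110273-102110302, plus strand).
AMOTL2: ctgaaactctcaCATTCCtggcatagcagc
LATS2: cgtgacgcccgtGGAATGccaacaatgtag
YAP1: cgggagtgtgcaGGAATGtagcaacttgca
The windows of LATS1, TEAD3 and WWTR1, and the other AMOTL2 window, did not hold these letters. A match is a description of the sequence and says nothing on whether a factor was bound in these cells.

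The knockdown was present in each si-EIF5A2 library. EIF5A2 (chromosome 3, 170888415 to 170908693, minus strand, GRCh38 with GENCODE release 29, as for all positions of genes here) stood at 27.8, 29.8 and 29.9 CPM (counts scaled to a common library total) in NC and at 2.76, 4.04 and 4.27 CPM in si-EIF5A2, which is 12.7% of the NC level (log2 fold change -2.98, SE 0.18, edgeR adjusted p = 1.6e-05). Library totals ranged from 46900204 to 74142267 estimated counts, and the correlation of log2 CPM between libraries was 0.964 to 0.974 within a group and 0.929 to 0.938 between groups. The line's markers KRT8 and KRT18 were abundant (349 to 659 and 297 to 457 CPM), whereas EPCAM, an epithelial marker, stood at only 1.15 to 1.68 CPM. The summed level of the 8 epithelial and SKOV3 markers was 1506 to 1673 CPM in NC and 956 to 1168 CPM in si-EIF5A2, and 3 of the 7 tested (KRT7, KRT8 and PAX8) were called lower. The leukocyte markers PTPRC and CD3E had 0 counts in every library, and all 10 markers of other cell types together reached 0.861 to 3.58 CPM. The part of these differences in the results on Hippo genes was not tested.

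Of the 10 Hippo genes, LATS2 was higher and WWTR1, CCN2 and AMOTL2 were lower in si-EIF5A2 than in NC. A gene was called when edgeR's quasi-likelihood test gave a Benjamini-Hochberg adjusted p under 0.05 over all genes tested and the fold change was over 1.5. By this rule 4 of the 10 members were called, 1 higher and 3 lower, against 24.6% of all genes tested (11.1% higher and 13.6% lower). With no limit on the fold change, 6 members passed the adjusted p, CCN1 (higher) and TEAD4 (lower) in addition, against 36.9% of all genes. The same 6 members had NC and si-EIF5A2 ranges that did not overlap, against 51.2% of all genes. The median log2 fold change of the members was 0.16, beside -0.01 over all genes tested. Changes of this kind were therefore frequent in the whole transcriptome, and with 10 genes these shares describe the members without setting them apart. In RNA from bulk cells, fewer cells of a type and less RNA per cell cannot be told apart.

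**Figure D1:**
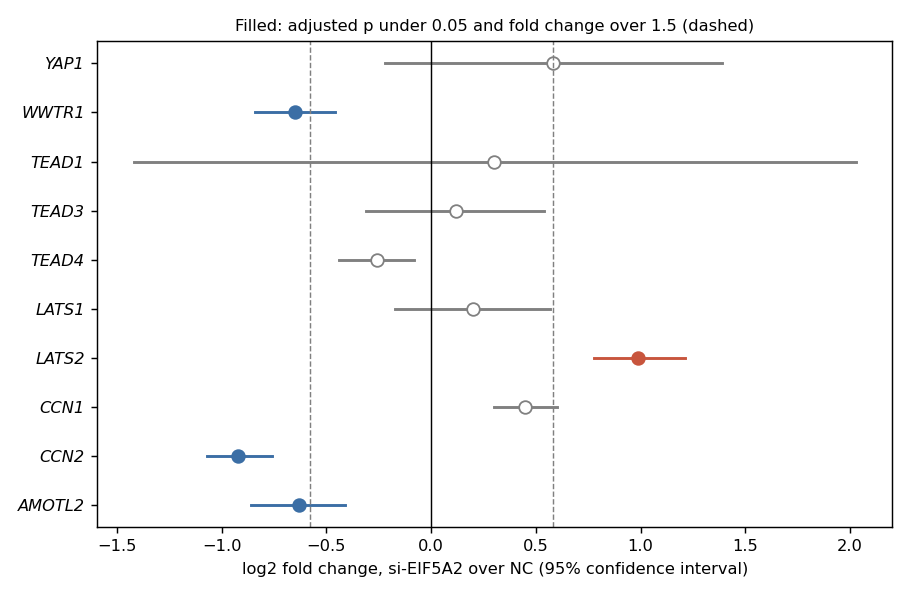
Log2 fold change (si-EIF5A2 over NC, horizontal axis) of each of the 10 members, with the 95% confidence interval as a line, and dashed lines at a fold change of 1.5. Filled points mark the 4 called genes, LATS2 to the right at 0.99 and WWTR1, AMOTL2 and CCN2 to the left at -0.65, -0.63 and -0.92; the interval of TEAD1 is the widest, from -1.42 to 2.03.

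WWTR1 and YAP1, the paralogous co-activators, did not follow the same course. WWTR1 (ENSG00000018408, chromosome 3, 149517235 to 149736714, minus strand) stood at 101, 91.1 and 90.7 CPM in NC and at 61.1, 56.3 and 62.8 CPM in si-EIF5A2. Every si-EIF5A2 library lay below every NC library. The mean fell from 94.3 ± 5.85 to 60.1 ± 3.39 CPM (SD, n = 3), 63.7% of the NC level, with a log2 fold change of -0.65 (SE 0.08, 95% confidence interval -0.84 to -0.46, edgeR adjusted p = 0.000627). WWTR1 shares exon bases with the antisense gene WWTR1-AS1, whose counts reached at most 1.01% of those of WWTR1 in any library, and whether the libraries keep the strand is not stated.

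YAP1 (ENSG00000137693, chromosome 11, 102110461 to 102233423, plus strand) stood at 21.2, 36.5 and 39.0 CPM in NC and at 61.8, 51.3 and 31.8 CPM in si-EIF5A2. The first 2 si-EIF5A2 libraries lay above all NC libraries, and the third lay within the NC range. The means were 32.2 ± 9.62 and 48.3 ± 15.2 CPM (SD, n = 3). Its log2 fold change was 0.58 (SE 0.33, interval -0.22 to 1.39), and it did not pass the test (edgeR adjusted p = 0.225). The interval holds both no difference and a rise of more than 2-fold, so the libraries did not resolve the direction of YAP1. The log2 fold change was 0.35 with NC replicate 1 left out, 0.36 with si-EIF5A2 replicate 1 left out and at most 0.81 with any 1 library left out. Its coefficient of variation was 29.8% in NC and 31.5% in si-EIF5A2, where the medians over all genes tested were 12.5% and 12.9%. Of the 4710 genes within 2-fold of its level, 5.67% varied more in NC and 6.01% varied more in si-EIF5A2. With 1526 to 3158 counts per library, counting error is small beside this spread, and its cause was not tested.

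The ratio between the paralogs is free of library size. The log2 ratio of WWTR1 to YAP1 counts was 2.25, 1.32 and 1.22 in NC and -0.01, 0.13 and 0.98 in si-EIF5A2. All si-EIF5A2 values lay below all NC values, and in the first si-EIF5A2 library the counts of both genes were nearly equal. The difference of means was -1.23. A 2-sided exact permutation test gave p = 0.1, which is the smallest value that 3 against 3 libraries can give (adjusted p = 0.2 over the 6 ratios compared).

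**Figure D2:**
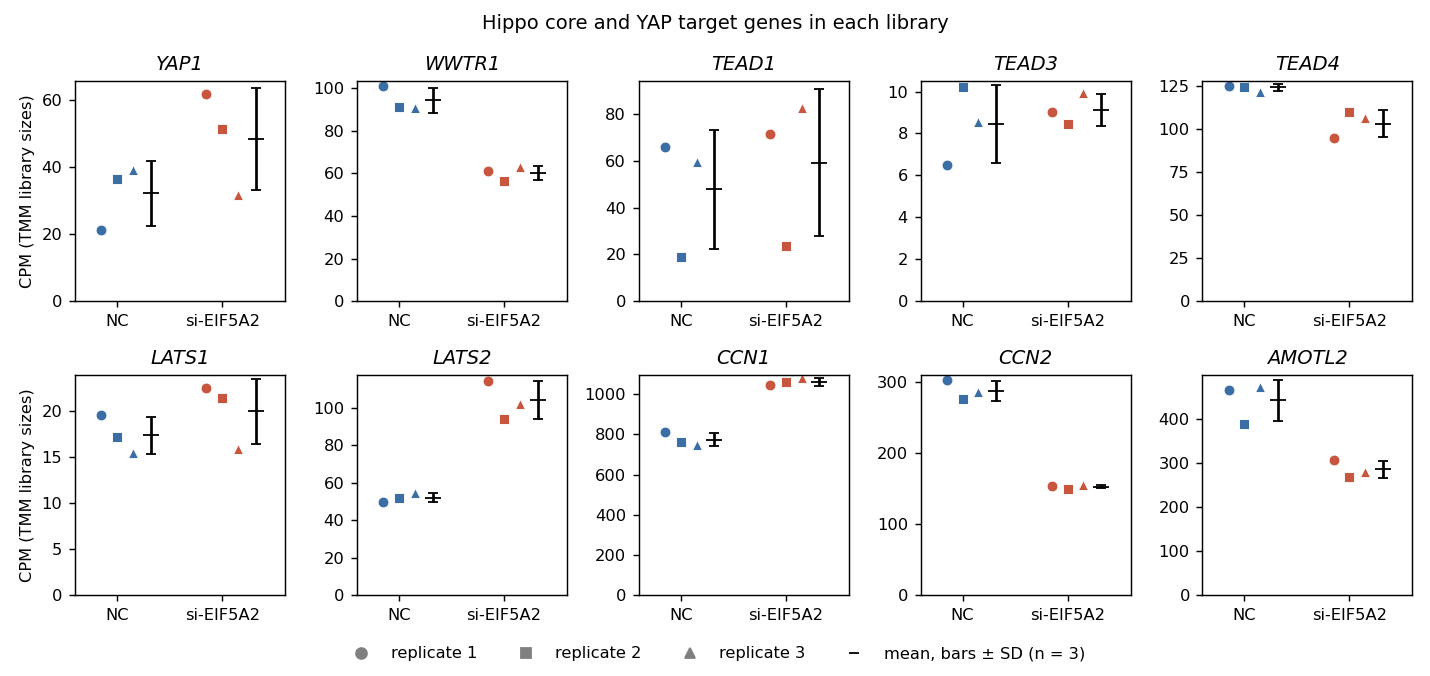
CPM (vertical axes, each from 0) of the 10 members in the 3 NC (blue) and 3 si-EIF5A2 (red) libraries, with marker shapes for the replicate numbers and bars for the mean ± SD. WWTR1, LATS2, CCN1, CCN2, AMOTL2 and TEAD4 show groups that do not overlap, whereas replicate 2 of TEAD1 is low in both groups, at 18.9 and 23.6 CPM.

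TEAD factors bind the DNA to which YAP and TAZ are recruited. No TEAD gene was called. TEAD4 (ENSG00000197905, chromosome 12, 2959330 to 3040673, plus strand) came nearest, with 125, 124 and 121 CPM in NC and 94.6, 109.6 and 106 CPM in si-EIF5A2. Its groups did not overlap, and the 3 NC libraries were within a narrow range. The mean fell to 83.6% of the NC level (124 ± 2.05 and 103 ± 7.8 CPM, SD, n = 3), with a log2 fold change of -0.26 (SE 0.08, interval -0.44 to -0.08, edgeR adjusted p = 0.033). This passed the adjusted p but stayed under the fold change required for a call. Over the alternative settings and left-out libraries, its adjusted p ranged from 0.0254 to 0.1.

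TEAD1 (ENSG00000187079, chromosome 11, 12674591 to 12944483, plus strand) stood at 65.7, 18.9 and 59.3 CPM in NC and at 71.6, 23.6 and 82.4 CPM in si-EIF5A2. In each group the library numbered 2 lay far below both other libraries, and the groups overlapped. These are large counts, from 1231 to 4792 per library. The coefficient of variation was 52.9% in both groups, and of the 4282 genes within 2-fold of its level only 1.56% varied more in NC and 1.47% in si-EIF5A2. Its log2 fold change of 0.30 (SE 0.67, interval -1.42 to 2.03, edgeR adjusted p = 0.771) left the direction unresolved. It was -0.08 with NC replicate 2 left out and -0.01 with si-EIF5A2 replicate 3 left out. With the replicate number as a block it was 0.31 (edgeR adjusted p = 0.0836). With both libraries numbered 2 left out it was 0.30 (edgeR adjusted p = 0.143). The replicate numbers did not pair the libraries over all genes, and the cause of the low TEAD1 values was not tested.

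TEAD3 (ENSG00000007866, chromosome 6, 35473597 to 35497076, minus strand) was the member with the fewest counts, 402 to 726 per library. It stood at 6.51, 10.2 and 8.55 CPM in NC and at 9.04, 8.43 and 9.94 CPM in si-EIF5A2. The si-EIF5A2 values fell inside the NC range. Its log2 fold change was 0.12 (SE 0.19, interval -0.31 to 0.54, edgeR adjusted p = 0.676), and -0.04 without NC replicate 1. TEAD2, the remaining gene of the family, had a log2 fold change of -0.08 (edgeR adjusted p = 0.66).

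Per kilobase of exon, TEAD4 was by far the most abundant TEAD transcript in every library. It made up 81.9%, 86.3% and 82.0% of the summed CPM per kb of TEAD1 to TEAD4 in NC and 75.6%, 85.5% and 76.4% in si-EIF5A2. The TEAD1 share was 9.48%, 2.90% and 8.84% in NC and 12.6%, 4.07% and 13.1% in si-EIF5A2. The ranges of both shares overlapped between groups, with the library numbered 2 highest for TEAD4 and lowest for TEAD1 in each group. Among the log2 count ratios, that of TEAD4 to TEAD3 was 4.27, 3.6 and 3.83 in NC and 3.39, 3.70 and 3.41 in si-EIF5A2, a difference of -0.40 (exact permutation p = 0.2, adjusted p = 0.3), and of -0.21 without NC replicate 1. The ratio of TEAD4 to TEAD1 differed by -0.57 (exact permutation p = 0.5, adjusted p = 0.6) and that of TEAD3 to TEAD1 by -0.17 (exact permutation p = 0.8, adjusted p = 0.8). Without NC replicate 2 these last differences became 0.01 and 0.56. The TEAD3 to TEAD1 difference was also positive when si-EIF5A2 replicate 1 (0.07) or si-EIF5A2 replicate 3 (0.10) was left out.

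The LATS kinases phosphorylate YAP and TAZ, and of the pair LATS2 rose. LATS2 (ENSG00000150457, chromosome 13, 20973032 to 21061547, minus strand) stood at 49.6, 51.8 and 54.7 CPM in NC and at 114, 94.0 and 102 CPM in si-EIF5A2. The lowest si-EIF5A2 library was well above the highest NC library. The means were 52.0 ± 2.54 and 104 ± 10.2 CPM (SD, n = 3), a 1.99-fold rise (log2 fold change 0.99, SE 0.09, interval 0.78 to 1.21, edgeR adjusted p = 0.000138). LATS2 was the only called member that rose.

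LATS1 (ENSG00000131023, chromosome 6, 149658153 to 149718256, minus strand) stood at 19.6, 17.2 and 15.5 CPM in NC and at 22.6, 21.5 and 15.9 CPM in si-EIF5A2. The first 2 si-EIF5A2 libraries were above the NC range and the third was inside it. Its log2 fold change was 0.20 (SE 0.16, interval -0.17 to 0.57, edgeR adjusted p = 0.387), so a rise as large as that of LATS2 lies outside its interval. With 1 library left out it ranged from 0.09 (without si-EIF5A2 replicate 1) to 0.33 (without si-EIF5A2 replicate 3), and it was 0.11 without NC replicate 3. An antisense gene shares exon bases with LATS1 and had at most 1.75% of its counts. The log2 ratio of LATS2 to LATS1 was 1.34, 1.59 and 1.81 in NC and 2.34, 2.13 and 2.69 in si-EIF5A2, higher in every si-EIF5A2 library than in any NC library. The difference was 0.80 (exact permutation p = 0.1, the smallest possible, and adjusted p = 0.2).

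The target genes moved in opposite directions. CCN2 (ENSG00000118523, chromosome 6, 131948176 to 131951373, minus strand) encodes connective tissue growth factor, a secreted matrix-associated protein and the textbook readout of YAP activity. It stood at 303, 276 and 286 CPM in NC and at 154, 150.3 and 155 CPM in si-EIF5A2. The groups were far apart, with little spread in either. The mean fell from 288 ± 13.9 to 153 ± 2.3 CPM (SD, n = 3), 53.0% of the NC level (log2 fold change -0.92, SE 0.07, interval -1.07 to -0.76, edgeR adjusted p = 4.13e-05). This was the largest fall among the members.

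CCN1 (ENSG00000142871, chromosome 1, 85580761 to 85583962, plus strand) encodes a secreted protein of the same family and is the other standard readout. It stood at 814, 763 and 749 CPM in NC and at 1044, 1061 and 1080.1 CPM in si-EIF5A2. Every si-EIF5A2 library lay above every NC library. The means were 775 ± 34.4 and 1062 ± 18.1 CPM (SD, n = 3), a 1.37-fold difference (log2 fold change 0.45, SE 0.06, interval 0.30 to 0.60, edgeR adjusted p = 0.00108). It passed the adjusted p and stayed under the fold change of a call.

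The divergence of CCN1 and CCN2 was the tightest of the within-library ratios. The log2 ratio of CCN2 to CCN1 counts was -1.42, -1.47 and -1.39 in NC and -2.76, -2.82 and -2.80 in si-EIF5A2. The difference of -1.37 compares with SDs of 0.04 and 0.03 within the groups. The exact permutation p was again 0.1, the smallest possible (adjusted p = 0.2). Leaving out any 1 library gave differences between -1.39 and -1.35.

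AMOTL2 (ENSG00000114019, chromosome 3, 134355874 to 134375479, minus strand), an angiomotin family protein that binds and restrains YAP and is itself a YAP target, stood at 465, 388 and 473 CPM in NC and at 307, 269 and 279 CPM in si-EIF5A2. The groups did not overlap, and in each the library numbered 2 was the lowest. The mean fell from 442 ± 46.5 to 285 ± 19.5 CPM (SD, n = 3), 64.5% of the NC level (log2 fold change -0.63, SE 0.10, interval -0.86 to -0.41, edgeR adjusted p = 0.0015). The calls of WWTR1, LATS2, CCN2 and AMOTL2 held in all 15 refits with other tools, scalings, filters or libraries left out.

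**Figure D3:**
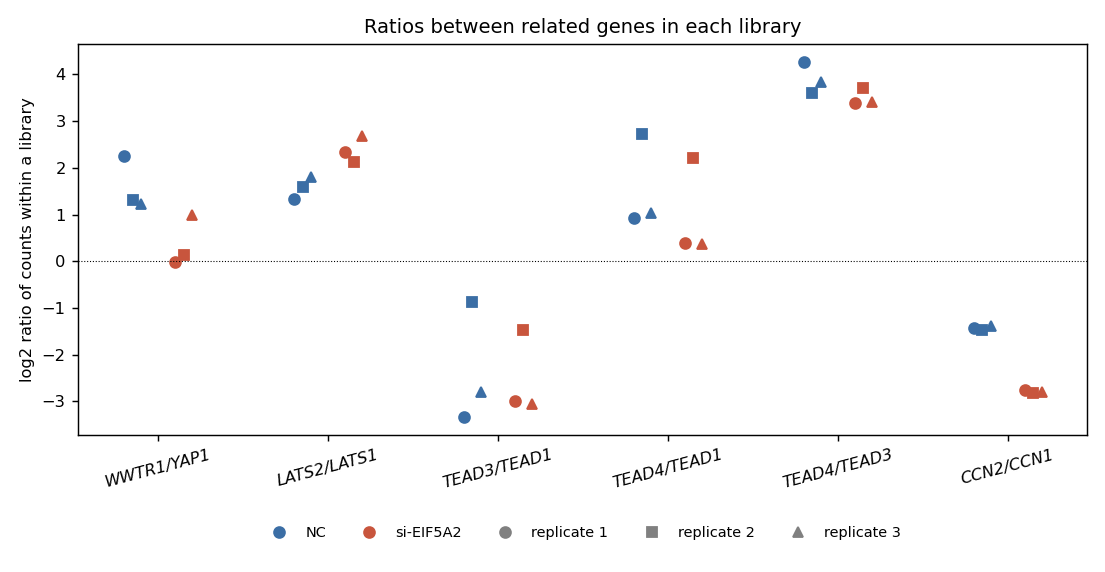
Log2 ratio of the counts of 2 related members within each library (vertical axis), for 6 pairs, in NC (blue) and si-EIF5A2 (red), with marker shapes for the replicate numbers. The groups do not overlap for WWTR1/YAP1, LATS2/LATS1 and CCN2/CCN1, with differences of -1.23, 0.80 and -1.37, and they overlap for the 3 TEAD pairs.

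Levels can be compared between genes only per length, here as CPM per kb of the union of a gene's exons. In NC the order was CCN1 (316 ± 14 CPM per kb), CCN2 (123 ± 5.93), AMOTL2 (73.9 ± 7.77), TEAD4 (54.4 ± 0.904), WWTR1 (11.2 ± 0.696), LATS2 (9.33 ± 0.456), YAP1 (5.12 ± 1.53), TEAD1 (4.66 ± 2.47), TEAD3 (2.77 ± 0.615) and LATS1 (2.02 ± 0.233, all SD, n = 3). Neighbours down to YAP1 had separate ranges in NC, whereas YAP1 and TEAD1, TEAD1 and TEAD3, and TEAD3 and LATS1 overlapped. The targets were thus the most abundant members, and TAZ transcript was above YAP transcript in each NC library, at 10.8 to 12 against 3.37 to 6.19 CPM per kb.

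In si-EIF5A2 some neighbours changed places. LATS2 reached 18.6 ± 1.83 CPM per kb and stood above WWTR1 at 7.14 ± 0.403, where in NC it had been below it. YAP1 (7.67 ± 2.41, range 5.05 to 9.81) and WWTR1 (range 6.69 to 7.47) no longer had separate ranges. The order of this pair depends on the length used, since with the longest transcript as length the si-EIF5A2 means were 8.95 CPM per kb for YAP1 and 11.9 CPM per kb for WWTR1. AMOTL2 (47.6 ± 3.25) and TEAD4 (45.5 ± 3.43) overlapped as well. CCN1 rose to 433 ± 7.37 CPM per kb and CCN2 stood at 65.4 ± 0.984, so that the distance between these 2 targets widened.

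**Figure D4:**
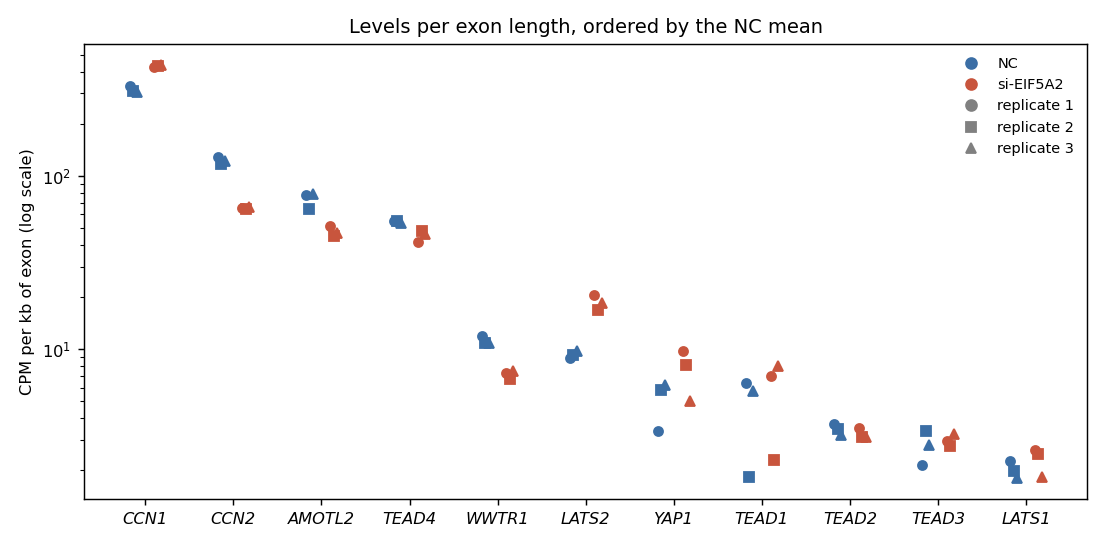
CPM per kb of exon (vertical log axis) of the 10 members and TEAD2 in each NC (blue) and si-EIF5A2 (red) library, ordered by the NC mean, with marker shapes for the replicate numbers. CCN1 is highest at 305 to 332 in NC, and WWTR1 and LATS2 change places between the groups.

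The called genes of 3 further lists of the pathway also lay in both directions, at shares to be read against the 24.6% of all genes tested that were called (11.1% higher, 13.6% lower, median log2 fold change -0.01). Among 33 further kinases and upstream regulators, 29 were tested and 9 were called (31.0%), 5 higher and 4 lower, with a median log2 fold change of 0.10. With so few genes, a share this near the background is not a result about the list. The core kinase STK3 stood at 26.7, 25.7 and 26.2 CPM in NC and at 39.7, 36.6 and 35.2 CPM in si-EIF5A2, a difference of 1.42-fold that passed the adjusted p alone (edgeR adjusted p = 0.0028). Its paralog STK4 had 1 library of 85.4 CPM in NC and 1 of 65.1 CPM in si-EIF5A2 beside 17.1 to 21.2 CPM in the other libraries, and did not pass (edgeR adjusted p = 0.851). The scaffold SAV1 (log2 fold change 0.21) and the LATS co-activator MOB1A (0.10) did not pass the adjusted p. MOB1B (-0.48), also a LATS co-activator, was lower without overlap of the groups and passed the adjusted p alone (edgeR adjusted p = 0.0406).

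NF2, which encodes the tumour suppressor merlin, rose from 26.8, 29.2 and 28.6 CPM to 43.0, 50.2 and 44.1 CPM (log2 fold change 0.70, edgeR adjusted p = 0.000848). FRMD6, a FERM-domain protein upstream of the kinases, rose from 191, 163 and 167 CPM to 365, 319.7 and 336 CPM (log2 fold change 0.97, edgeR adjusted p = 0.000126). The LATS-related kinase gene STK38L (1.0), the kinase gene TAOK3 (0.83) and WWC2 (0.62), a gene of the KIBRA family, also rose. WWC2 and STK38L were the least certain of these, since WWC2 lost its call in 6 of 15 refits, with 0.45 without NC replicate 1, and STK38L had an adjusted p of 0.0536 in edgeR without both libraries numbered 2, at a log2 fold change of 1.15. RASSF5 fell (-1.66) at low levels, from 4.58, 3.15 and 5.81 CPM to 1.74, 1.25 and 1.29 CPM, and few fragments stand behind the si-EIF5A2 values. WWC3 (-0.87) and the MAP4K kinase genes MAP4K2 (-1.18) and MAP4K5 (-0.90), whose products can activate LATS, fell as well. Genes whose products act to restrain YAP thus stood among both the rises and the falls.

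Of 25 further binding proteins and inhibitors of YAP, TAZ or TEAD, 22 were tested and 8 were called (36.4%, against 24.6% of all genes), 4 higher and 4 lower (median -0.04). With 22 genes, this share describes the list without setting it apart from all genes. The largest rise was that of VGLL3, a TEAD co-factor that competes with YAP for its partner, from 14, 13.2 and 13.7 CPM to 43.9, 43.5 and 48.5 CPM (log2 fold change 1.73, edgeR adjusted p = 9.87e-06). VGLL4, a TEAD-binding repressor of YAP output, fell from 45.8, 40.8 and 46.2 CPM to 30.4, 29.9 and 26.3 CPM (log2 fold change -0.62, edgeR adjusted p = 0.00192; -0.56 and under the required fold without si-EIF5A2 replicate 3). AMOTL1, the paralog of AMOTL2, rose from 19.6, 21.9 and 22.1 CPM to 36.1, 32.8 and 35.5 CPM (log2 fold change 0.71, edgeR adjusted p = 0.000712), the reverse of AMOTL2. The LIM protein gene WTIP (1.07) rose. Of the 14-3-3 genes, whose proteins hold phosphorylated YAP in the cytoplasm, YWHAG rose (0.90) and YWHAH fell (-1.46). The others in the list (YWHAB, YWHAE, YWHAQ, YWHAZ and SFN) were not called, with log2 fold changes from -0.06 to 0.36. BTRC (-1.61), a ubiquitin ligase subunit that marks YAP and TAZ for degradation, fell. Its paralog FBXW11 was higher (log2 fold change 0.43) and passed the adjusted p alone (edgeR adjusted p = 0.00672).

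Of 21 further target genes of YAP and TAZ, all 21 were tested and 8 were called (38.1%, against 24.6% of all genes), 3 higher and 5 lower (median -0.01). With 21 genes, this share describes the list without setting it apart from all genes. PTPN14, which was not called, is counted both here and among the binding proteins. AXL, a receptor tyrosine kinase gene, fell from 1524, 1435 and 1401 CPM to 735, 762 and 757 CPM (log2 fold change -0.95, edgeR adjusted p = 2.8e-05), close in size to CCN2. ASAP1 (-1.37), FOXF2 (-0.73), CRIM1 (-0.61) and BIRC5 (-1.55), which is also a gene of dividing cells, fell as well. The call of CRIM1 was lost without si-EIF5A2 replicate 2 (-0.54). The EGF receptor ligand gene AREG rose from 0.575, 0.72 and 0.319 CPM to 3.6, 4.12 and 2.84 CPM (log2 fold change 2.69, edgeR adjusted p = 0.000642), at levels where few fragments stand behind each value. The coagulation factor gene F3 (1.44) and CCDC80 (0.98), which encodes a matrix protein, rose. CCDC80 lost its call in 6 of 15 refits through the adjusted p, while its log2 fold change in those refits was 0.94 to 1.08.

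Targets that were not called included some that passed the adjusted p and stayed under the fold change of a call. With no limit on the fold change, 13 of the 21 passed, 5 higher and 8 lower, against 36.9% of all genes tested. ANKRD1 and MYC did not pass the adjusted p. ANKRD1, another standard readout, stood at 9.95 to 11.5 CPM in NC and 9.2 to 12 CPM in si-EIF5A2, with a log2 fold change of -0.01 (edgeR adjusted p = 0.97). MYC stood at 15.5, 12.7 and 15 CPM in NC and at 175, 13.9 and 14.1 CPM in si-EIF5A2, so that its log2 fold change of 2.23 rested on 1 library (edgeR adjusted p = 0.214). The 3 standard readouts CCN1, CCN2 and ANKRD1 were thus higher, lower and without a resolved difference in the same libraries.

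**Figure D5:**
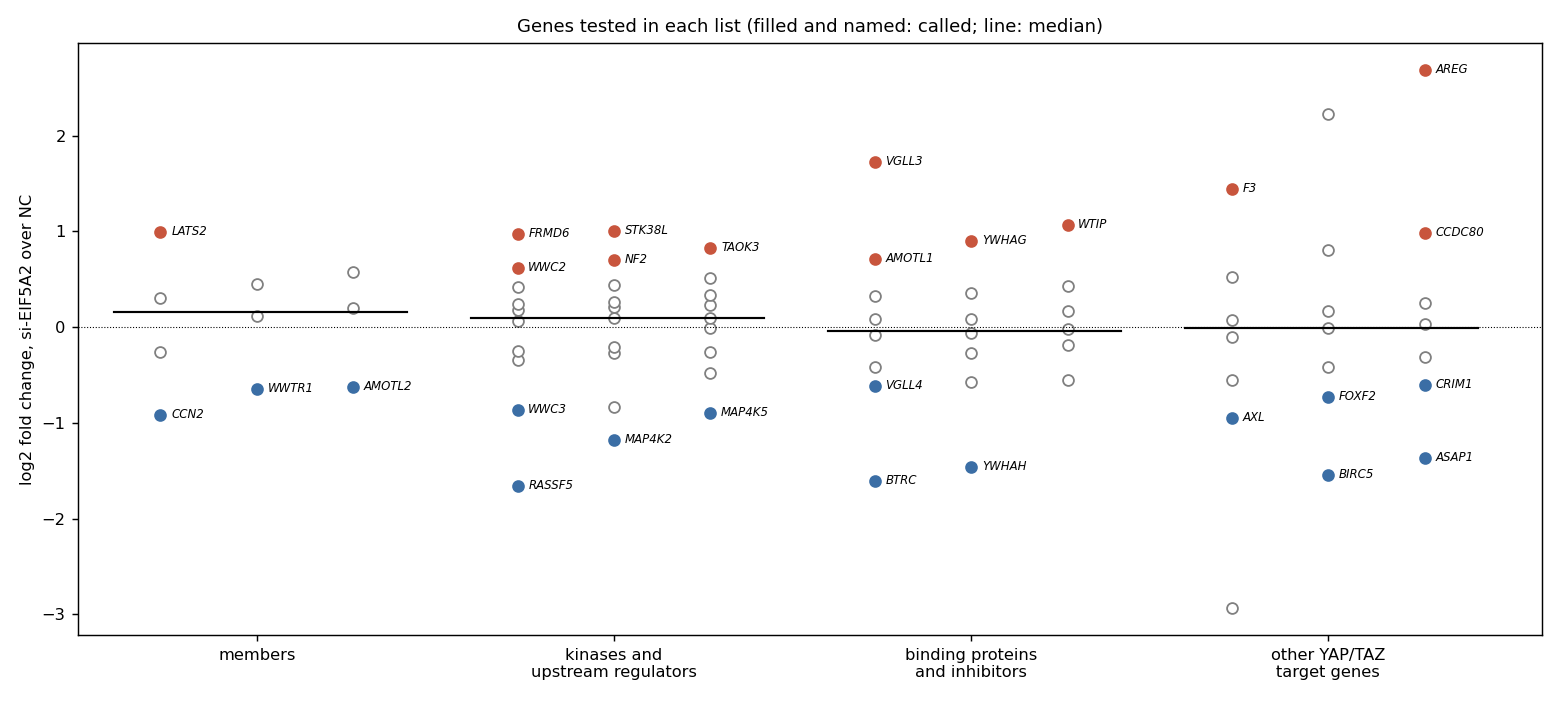
Log2 fold change (si-EIF5A2 over NC, vertical axis) of the tested genes among the 10 members and in the 3 further lists, with called genes filled and named and a line at the median of each list (1 called gene is left out of the points). Called genes lie on both sides of 0 in every list, and the medians are 0.16, 0.10, -0.04 and -0.01.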

How the data were processed

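RNA of SKOV3 cells was sequenced by the authors in paired-end reads of 150 bases, and transcript levels were estimated with StringTie and ballgown. The values deposited by the authors are estimated counts of each gene, given as whole numbers without normalization. The aligner, human genome build and strand setting are not given in the sources used here. The submitters' processing notes list Bowtie 0.12.2 and mouse builds, which go against the human gene identifiers. Low values pile up at multiples of 3.82, so 1 fragment is worth several counts, and 3 fragments correspond to 0.157 to 0.244 CPM per library (counting error only). All 6 columns were matched to libraries by name, and 0 were left unused.

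Differential expression was computed with edgeR 4.0.16 in R 4.3.3 on the 6 libraries with condition as the only term (filterByExpr, TMM, robust quasi-likelihood fits, Benjamini-Hochberg adjustment over 16208 genes). CPM used TMM library sizes, with factors of 0.985 to 1.01. Symbols were found for 58472 of 58825 identifiers, and positions and exon lengths were taken from GENCODE release 29 (GRCh38), which held 58552. StringTie shares fragments between overlapping transcripts, so overlapping genes are less certain. Ratios within a library were compared by exact permutation tests over the libraries.

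The members and lists were chosen with earlier results of these data known. Named from each further list were up to 5 called genes with the largest rise and 5 with the largest fall among those without overlap between groups. STK3, STK4, SAV1, MOB1A, MOB1B, TEAD2, ANKRD1 and MYC were added to these names with their values in view. Alternatives were DESeq2 1.42.0, other scalings and filters, counts divided by 3.82, the replicate number as a block, other thresholds and leaving out libraries. Some genes of the lists are counted but not reported here by name. The edgeR fit and the rule for a call were tested on simulated counts, which did not hold the step of 3.82. The ratios, the levels per length and the motif search were not tested in this way.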

Additional observations from a re-analysis of the deposited data

How the results depend on the processing

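The calls of WWTR1, LATS2, CCN2 and AMOTL2 and of EIF5A2 kept their direction and stayed past the threshold in all 15 alternatives, and the number of members called was 4 whichever library was left out. TEAD1, never called, ranged from -0.08 to 0.68 in log2 with 1 library left out and turned to -0.08 without NC replicate 2 and to -0.01 when si-EIF5A2 replicate 3 was left out. TEAD3 ranged from -0.04 to 0.28 and turned to -0.04 without NC replicate 1. The TEAD3/TEAD1 difference ranged from -0.68 to 0.56 and turned to 0.56 without NC replicate 2 and to 0.07 or 0.10 when si-EIF5A2 replicate 1 or 3 was left out. The TEAD4/TEAD1 difference ranged from -1.18 to 0.01, with 0.01 without NC replicate 2. The cause was not tested. The threshold in the methods was an unadjusted p under 0.05 and a fold change over 2 or under 0.5. It called 0 of 10 members, 3 of 29 kinases and upstream regulators, 5 of 22 binding proteins and 5 of 21 targets. Of all 16208 genes tested it called 2370. No member changed by 2-fold, and LATS2 came nearest at 1.99-fold. With no limit on the fold change, 13 kinases and upstream regulators, 13 binding proteins, 13 targets and 5974 of all genes (36.9%) were called. DESeq2 called 4312 genes and edgeR 3992, and 3883 without the filter on low counts, where the share of calls that were higher was 41.0% against 44.9%. Taking the longest transcript as length moved the NC level to 339 (CCN1), 97.7 (AMOTL2), 73.2 (TEAD4), 18.7 (WWTR1) and 2.32 (LATS1) CPM per kb. With both libraries numbered 2 left out, an alternative added after the data were seen, 3372 genes were called.

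The replicate numbers did not pair the libraries (correlations of the deviations -0.02, 0.01 and 0 for numbers 1, 2 and 3). With the replicate block, 3731 genes and 4 members were called, and CCN2 stood at -0.91.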
